A study of Mus musculus with 8 samples.

Results

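The S100 genes encode small calcium-binding proteins of the EF-hand type, and 8 of them were examined here in whole bone marrow (BM): S100a1, S100a4, S100a6, S100a8, S100a9, S100a10, S100a11 and S100a13. They were taken by name from the 41214 genes counted in each mouse, and every one of the 8 had enough counts to be tested. S100A8 and S100A9 pair to form calprotectin, which neutrophils and monocytes hold in their cytosol and release as an alarmin, a signal of damage that acts on the receptors TLR4 and RAGE. The other members work mainly inside the cell through partner proteins: S100A10 with annexin A2, S100A11 with annexin A1, S100A6 with annexin A11 and CacyBP, and S100A4 with non-muscle myosin IIA. S100A13 takes part in the export of interleukin 1 alpha, and S100A1 is best known from muscle.

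BM RNA was sequenced from 8 C57Bl6 mice, 4 groups of 2 mice, to compare mice with a low dose of Gfi1 (KD) and mice without it (KO). Gfi1 is a transcriptional repressor that granulocyte development needs. By the labels, young KD animals were aged 39 and 42 days and sick KD animals 187 and 78 days. Young KO animals were aged 48 and 44 days, and old KO animals 158 and 101 days. The labels give leukemia (AML) for the sick KD mice and none for old KO mice, while the paper describes a myeloproliferative disease (MPN) in KD mice. KD mice carry a human GFI1 cDNA at the Gfi1 locus with a floxed neo cassette in antisense that lowers its expression, KO mice carry no functional allele, and no wild-type BM is among these samples. Every KO-to-KD difference below therefore compares altered genotypes, and old KO and sick KD differ in genotype, disease and age together.

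The libraries held 26642067 to 42679114 counts on genes, and the S100 members took 0.131% to 0.434% of them. The sick KD libraries stood apart in reads that the counting program HTSeq tallied as on no counted feature. These were 42.0% and 38.8% of their uniquely aligned reads, against 26.9% to 33.8% in the other libraries. The tally does not say where in the genome such reads lay. HTSeq's tally of reads not uniquely aligned was 45056950 and 56501078 in sick KD, beside 26642067 and 30139409 counts on genes. In the other libraries it was 29299324 to 47000865, beside 27515379 to 42679114 counts on genes. Mouse Gfi1 reached 5.43 to 7.08 CPM (counts scaled to library size by TMM, as CPM) in libraries labelled KD and 13.2 to 29.9 CPM in those labelled KO. Since the KD allele makes the human transcript, this level cannot check the labels. Markers of the BM lineages were present, whereas Ly6g, which marks mature neutrophils, reached only 0.14 to 0.55 CPM in any library.

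The members lie on chromosome 3 (GRCm38) in a pair of clusters. S100a1 (ENSMUSG00000044080, 90511034 to 90514392, minus strand) and S100a13 (ENSMUSG00000042312, 90514435 to 90524581, plus strand) are head to head with 42 bases between them. S100a4 (90603771 to 90606045), S100a6 (90612882 to 90624181) and S100a8 (ENSMUSG00000056054, 90668978 to 90670035) follow on the plus strand, and S100a9 (ENSMUSG00000056071, 90692632 to 90695721) lies 22.6 kb beyond S100a8 on the minus strand. S100a11 (ENSMUSG00000027907, 93520488 to 93526287) and S100a10 (93555080 to 93564643), both on the plus strand, are 2825 kb further on. All are short: the union of their exons measures 511 bases in S100a11 to 1367 bases in S100a6, against a median of 3966.5 bases over the tested genes. S100a11 has a processed pseudogene in the annotation, and S100a4 overlaps the locus of S100a3, so reads shared with these copies or neighbours make both counts less certain. S100a3 itself had at most 1 count in any library.

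The bases just upstream of S100a8, S100a9 and S100a11 are shown because these 3 genes carried the differences between old KO and sick KD. They were read from the RefSeq promoter table (GRCm38.p6), which matched 7 of the 8 members and gave none for S100a10. Each run is printed 5′ to 3′ on the strand of its gene and ends at the base before the GENCODE start. Capitals mark matches, on either strand, to 8 motifs: the C/EBP motif searched as TTNNGCAA, the PU.1 motif searched as GAGGAA, the Gfi1 motif searched as AATCACNGC, the AP-1 motif searched as TGANTCA, the NF-kB motif searched as GGANTTTCC, the TATA box searched as TATAAA, the CCAAT box and the GC box searched as GGGCGG. No matches overlap in the runs printed.
S100a8: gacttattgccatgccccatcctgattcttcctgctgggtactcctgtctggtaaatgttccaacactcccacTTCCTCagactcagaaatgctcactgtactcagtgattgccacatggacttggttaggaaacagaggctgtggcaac
S100a9: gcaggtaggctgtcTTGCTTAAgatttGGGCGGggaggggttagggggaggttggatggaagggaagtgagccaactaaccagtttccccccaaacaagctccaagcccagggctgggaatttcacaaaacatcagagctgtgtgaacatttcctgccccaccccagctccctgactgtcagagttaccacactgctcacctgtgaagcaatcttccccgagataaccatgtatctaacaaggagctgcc
S100a11: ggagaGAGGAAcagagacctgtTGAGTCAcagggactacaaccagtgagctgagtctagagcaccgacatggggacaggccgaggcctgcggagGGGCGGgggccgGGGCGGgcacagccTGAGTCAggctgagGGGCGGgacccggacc
The S100a11 run (chr3:93520338-93520487) held 2 AP-1, 3 GC box matches and 1 PU.1 match. The S100a9 run (chr3:90695722-90695971) held a C/EBP match near a GC box, and the S100a8 run (chr3:90668828-90668977) held a PU.1 match. In the whole table of 32851 promoters, each from 250 bases before to 50 after the RefSeq start, 10.8% held the C/EBP letters, 28.3% those of PU.1, 7.81% those of AP-1 and 35.7% the GC box. The Gfi1 letters were in 0.919% of all promoters and the NF-kB letters in 1.25%, and in 0 of the 7 member promoters. No match says only that these letters are not in the window.

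A TATA box is in 13.6% of all promoters and in 3 of the 7 members, S100a4, S100a8 and S100a9, and the 30 bases around it are shown with the box in capitals.
S100a4: ggcctggcagggTATAAAtaggtcagattg
S100a8: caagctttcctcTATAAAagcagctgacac
S100a9: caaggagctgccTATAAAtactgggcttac
In S100a4 (chr3:90603727-90603756) and S100a8 (chr3:90669029-90669058) the box began 31 and 30 bases before the RefSeq start. Another PU.1 match of S100a8 began 36 bases before that start, next to the box, and is left in lower case. The GENCODE model of S100a8 starts further upstream, so there the box lies inside its exon. In S100a9 (chr3:90695704-90695733) it began at the annotated start itself. S100a8 and S100a9 were the members whose levels varied most between mice, while S100a4 spanned only 1.64-fold. A link between the box and the levels was not tested.

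Between the calprotectin genes and the other members the spread over the 8 mice was of another order. S100a8 ranged from 72.9 to 2117 CPM and S100a9 from 37.6 to 1099 CPM, a 29.0-fold and a 29.2-fold range. S100a11 spanned 2.23-fold (33.0 to 73.6 CPM), and the remaining members between 1.37-fold (S100a13, 34.5 to 47.1 CPM) and 1.64-fold (S100a4, 333 to 546 CPM). In bulk BM, a lower level can reflect fewer cells of a type or less RNA per cell, and these cannot be told apart.

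**Figure D1:**
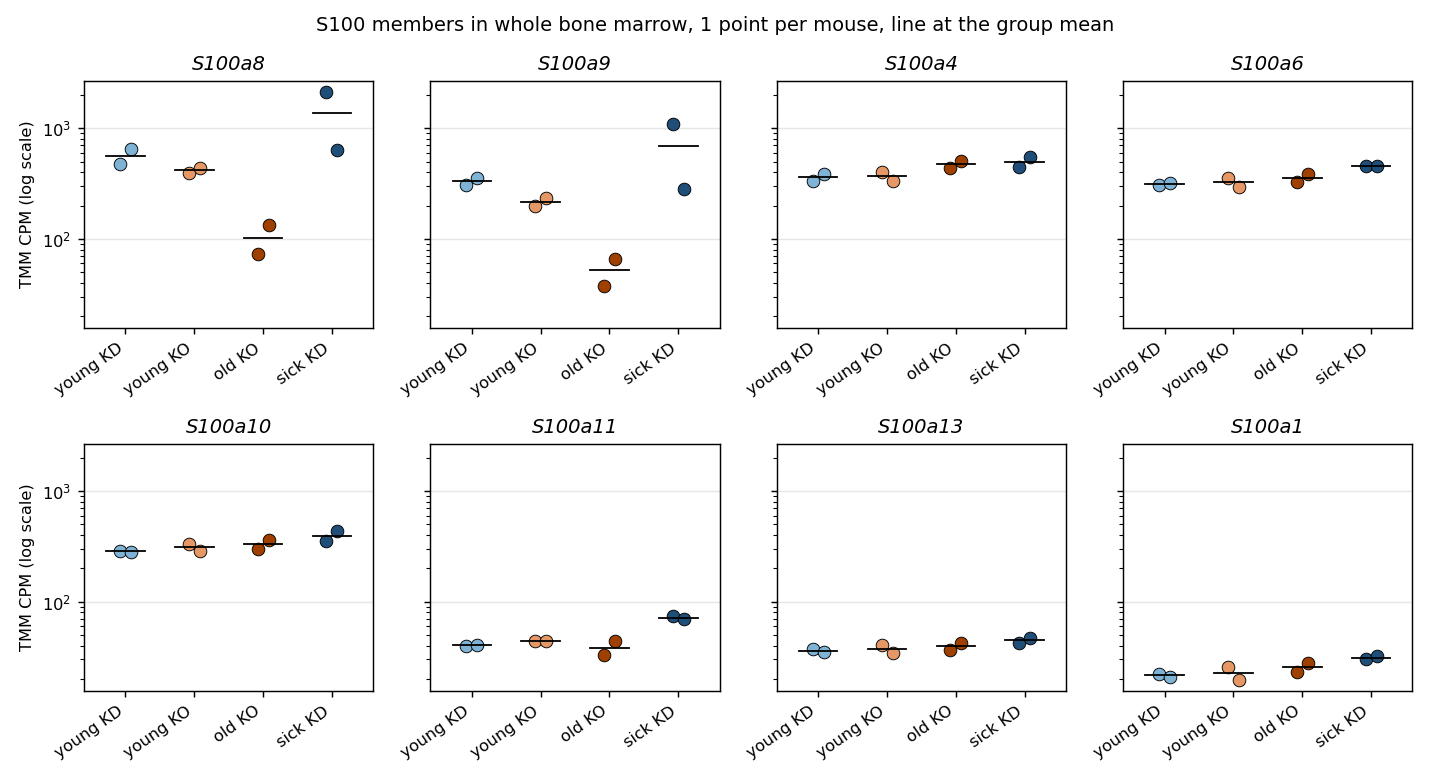
TMM CPM of each S100 member on a log axis, 1 point per mouse in young KD, young KO, old KO and sick KD (n = 2 each), with a line at the group mean. S100a8 and S100a9 spread over a 29.0-fold and a 29.2-fold range with old KO lowest, whereas the other members stay within 2.23-fold.

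Per kilobase of exon, which allows genes to be compared, young KD BM had most S100a8 (808 ± 176 CPM per kb, SD, n = 2), then S100a9 (636 ± 70.8) and S100a4 (615 ± 62.1). Neither S100a8 and S100a9 nor S100a9 and S100a4 differed there beyond their spread. S100a10 (234 ± 5.43) and S100a6 (229 ± 5.57) came next and also did not differ beyond it, followed by S100a11 (78.8 ± 1.75), S100a13 (50.5 ± 1.87) and S100a1 (31.0 ± 1.25).

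The order differed in old KO BM. S100a4 led with 808 ± 79.2 CPM per kb, followed by S100a10 (271 ± 36.0) and S100a6 (261 ± 30.3). S100a8 (148 ± 61.1) and S100a9 (99.4 ± 38.6) ranked below these 3 and overlapped within their spread. In sick KD BM S100a8 had the highest mean (1986 ± 1505 CPM per kb) and S100a9 the next (1322 ± 1106), but both SDs were nearly as large as the means. S100a4 (848 ± 122) lay within that spread.

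The calprotectin subunits kept a similar proportion whatever their level. Each library held 1.55 to 2.27 S100a8 counts per S100a9 count, a narrow range beside the 29.0-fold range of S100a8. The ratio was 1.55 and 1.81 in young KD, 2.00 and 1.89 in young KO, 1.94 and 2.01 in old KO, and 1.93 and 2.27 in sick KD. The young KD mice were the lowest pair and lay below all 6 other mice. Together the subunits took 0.302% of all counts in the 187-day sick KD mouse and 0.0868% in the 78-day one. This share was 0.0799% and 0.104% in young KD, 0.0602% and 0.0689% in young KO, and 0.0114% and 0.0197% in old KO. Only the old KO mice were under 0.02%, and the 78-day sick KD mouse fell among the young mice.

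**Figure D2:**
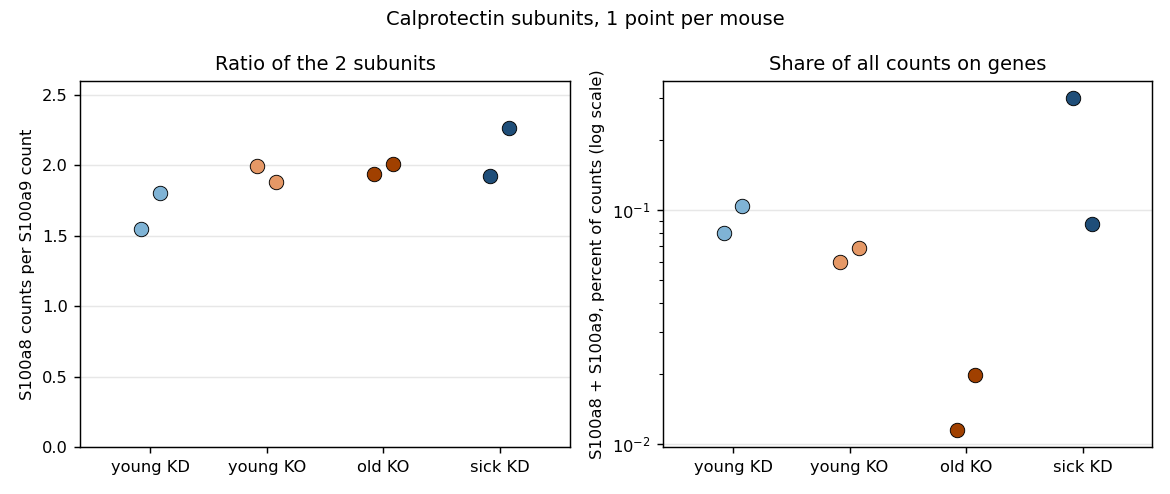
Left, S100a8 counts per S100a9 count, and right, the percent of all counts on genes that S100a8 and S100a9 took together (log axis), 1 point per mouse in the 4 groups (n = 2 each). The ratio stays between 1.55 and 2.27 while the share runs from 0.0114% in an old KO mouse to 0.302% in a sick KD mouse.

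In the head-to-head pair S100a13 and S100a1 the genes spanned only 1.37-fold and 1.63-fold by themselves, so their ratio had little room to vary. S100a13 had 1.41 to 1.75 counts per S100a1 count, lowest in the sick KD mice (1.41 and 1.47) and highest in a young KO mouse. The same limit applies to S100a10, with a 1.56-fold range, and its partner Anxa2 (631 to 851 CPM). Each library held 1.96 to 2.41 Anxa2 counts per S100a10 count. S100a4 had 0.974 to 1.34 counts per S100a6 count, with both old KO mice (1.34 and 1.31) above the other 6.

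The comparison of old KO with sick KD asked how BM of KO mice that stayed free of leukemia differed from that of KD mice that fell ill. S100a8, S100a9 and S100a11 were lower in old KO, and none of the 8 members was higher by the test. S100a8 had 72.9 and 133 CPM in the old KO mice and 2117 and 640 CPM in the sick KD mice. Every old KO value was thus under every sick KD value, by a wide margin. The log2 fold change was -3.76 (SE 0.58, 13.5-fold lower, adjusted p = 0.0097 by the quasi-likelihood test of edgeR, adjusted over all genes by Benjamini-Hochberg). S100a9 had 37.6 and 66.1 CPM in old KO against 1099 and 282 CPM in sick KD, again without overlap. Its log2 fold change was -3.75 (SE 0.63, 13.4-fold lower, adjusted p = 0.0122, edgeR). S100a11, the partner of annexin A1, had 33.0 and 43.6 CPM in old KO and 73.6 and 69.5 CPM in sick KD. It was 1.88-fold lower (log2 fold change -0.91, SE 0.15, adjusted p = 0.0112, edgeR).

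These 3 calls of 8 compare with 8.22% of all tested genes called lower and 9.93% called higher in old KO. The median log2 fold change was -0.34 over the members and -0.005 over all genes. The groups did not overlap, with old KO lower, in 6 of the 8 members, where 31.4% of all genes did so. S100a6 had 327 and 386 CPM in old KO against 457 and 458 CPM in sick KD, but its log2 fold change of -0.37 (SE 0.14) had an adjusted p of 0.109 (edgeR). S100a1 (-0.30), S100a10 (-0.27), S100a13 (-0.20) and S100a4 (-0.08) did not pass either, and with scaling to library totals alone S100a4 turned to 0.03. Leaving out a mouse leaves 1 in its group, and the lone mouse is then assumed to vary like the other group, so such fits show how far a value rests on that mouse and are no independent support. S100a8, S100a9 and S100a11 passed in each of them, and without the 187-day sick KD mouse the log2 fold changes of S100a8 and S100a9 were -2.65 and -2.46. With 2 mice per group, edgeR's p-values rest on the spread between these mice and on variance estimated over other genes. They do not measure the spread among other mice. The smallest two-sided p that an exact permutation test can reach is 0.333.

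**Figure D3:**
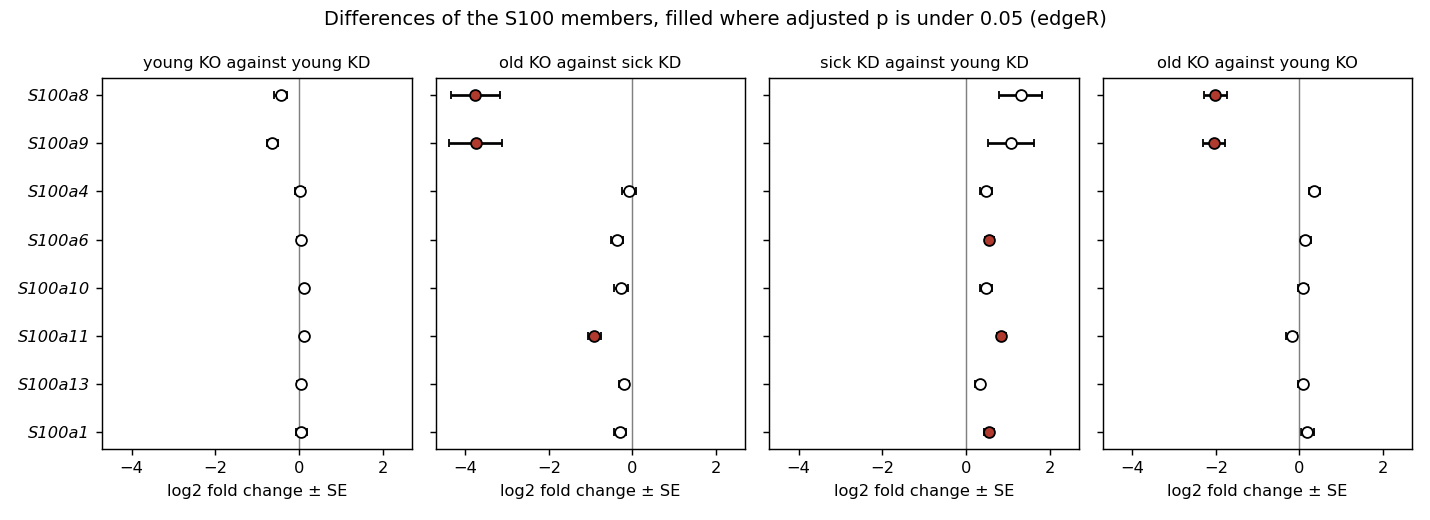
log2 fold change of each member with its SE in the 4 comparisons of 2 groups (n = 2 mice each), filled where edgeR's adjusted p was under 0.05. S100a8 and S100a9 sit at -3.76 and -3.75 in old KO against sick KD and at -2.02 and -2.05 in old KO against young KO, while the other members stay within 1 log2 unit of 0 throughout.

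Old KO mice were also compared with young KO mice, and 2 of the 8 members, the calprotectin genes, were lower in the old ones. S100a8 had 393 and 442 CPM in the young KO mice, at 48 and 44 days, and 72.9 and 133 CPM in the old KO mice. The log2 fold change of old against young KO was -2.02 (SE 0.28, 4.05-fold lower, adjusted p = 0.0466, edgeR). S100a9 had 197 and 234 CPM in young KO and 37.6 and 66.1 CPM in old KO. It was 4.14-fold lower (log2 fold change -2.05, SE 0.27, adjusted p = 0.0396, edgeR). In all genes 0.606% were called lower in old KO. Both calls lay close to the threshold: with all 8 mice in 1 fit the adjusted p was 0.169 for S100a8 and 0.199 for S100a9 (edgeR). The S100a8 call was also lost without young KO replicate 1 (adjusted p = 0.0576) or replicate 2 (0.12), and the S100a9 call without replicate 2 (0.106), with log2 fold changes between -2.51 and -1.66 in every such fit.

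The other 6 members had log2 fold changes between -0.19 (S100a11) and 0.36 (S100a4) in that comparison, and none passed the test. S100a4 had 439 and 505 CPM in old KO and 406 and 333 CPM in young KO (adjusted p = 0.458, edgeR), so its groups did not overlap, as in 17.7% of all genes with old KO higher. With old KO lower, the groups did not overlap in S100a8 and S100a9, as in 19.6% of all genes.

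The comparison of sick with young KD mice follows a single genotype into disease and age. S100a11, S100a6 and S100a1 were higher in sick KD, and none of the 8 was lower by the test. S100a11 had 73.6 and 69.5 CPM in sick KD and 39.6 and 40.9 CPM in young KD, a log2 fold change of 0.84 (SE 0.10, 1.79-fold, adjusted p = 0.0069, edgeR). S100a6, a partner of annexin A11, had 457 and 458 CPM against 307 and 318 CPM (0.56, SE 0.11, 1.47-fold, adjusted p = 0.0184, edgeR). S100a1 had 30.3 and 32.1 CPM against 22.1 and 20.9 CPM (0.55, SE 0.12, 1.46-fold, adjusted p = 0.0246, edgeR). These changes were small but well outside the spread between mice of a group. In all genes 9.45% were called higher and 11.4% lower in sick KD.

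S100a10 had 352 and 435 CPM in sick KD and 289 and 279 CPM in young KD, and missed the threshold narrowly (log2 fold change 0.48, SE 0.13, adjusted p = 0.0505, edgeR). S100a4 with 445 and 546 CPM against 333 and 385 CPM (0.47, adjusted p = 0.0641) and S100a13 with 42.6 and 47.1 CPM against 37.0 and 35.1 CPM (0.32, adjusted p = 0.0900) did not pass. The median log2 fold change was 0.55 over the members and 0.01 over all genes. In 6 members the groups did not overlap, with sick KD higher, as in 32.4% of all genes.

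S100a8 and S100a9 were the exceptions, since the sick KD mice disagreed. S100a8 had 2117 CPM in the 187-day mouse and 640 CPM in the 78-day mouse, against 475 and 647 CPM in young KD. The 78-day mouse thus lay within the young KD range. The log2 fold change was 1.31 (SE 0.51, adjusted p = 0.113, edgeR), and without the 187-day mouse it was 0.20. S100a9 had 1099 and 282 CPM against 306 and 358 CPM, so the 78-day mouse was below both young KD mice. Its log2 fold change was 1.07 (SE 0.55, adjusted p = 0.208, edgeR), and -0.22 without the 187-day mouse. Without the 78-day mouse the values were 1.93 and 1.74, and both passed edgeR's test (adjusted p = 0.00535 and 0.00254). That fit has a single sick KD mouse and takes its spread from the young KD pair, so it leaves out the disagreement itself.

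Gene length moved with this comparison. Over the 2070 tested genes with under 1500 bases of exon, as all 8 members have, the median log2 fold change of sick against young KD was 0.25, and over the 12490 longer genes it was -0.02. After removal of the trend in GC content and exon length from every library, S100a11 went to 0.38 (adjusted p = 0.0162), S100a6 stayed at 0.52 (adjusted p = 0.0067), S100a10 passed at 0.40 (adjusted p = 0.0344), and S100a1 was lost at 0.28 (adjusted p = 0.0671, edgeR). S100a4 and S100a13 were then at 0.08 and 0.07. In old KO against sick KD the short genes had a median of -0.17, and without the trend S100a8 (-3.43), S100a9 (-3.36) and S100a11 (-0.67) were still called and S100a6 was called too (-0.44, adjusted p = 0.0374, edgeR). The calls of S100a6 and S100a1 were also lost without either young KD mouse, with an adjusted p between 0.131 and 0.230 (edgeR), whereas that of S100a11 was kept in every such fit.

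**Figure D4:**
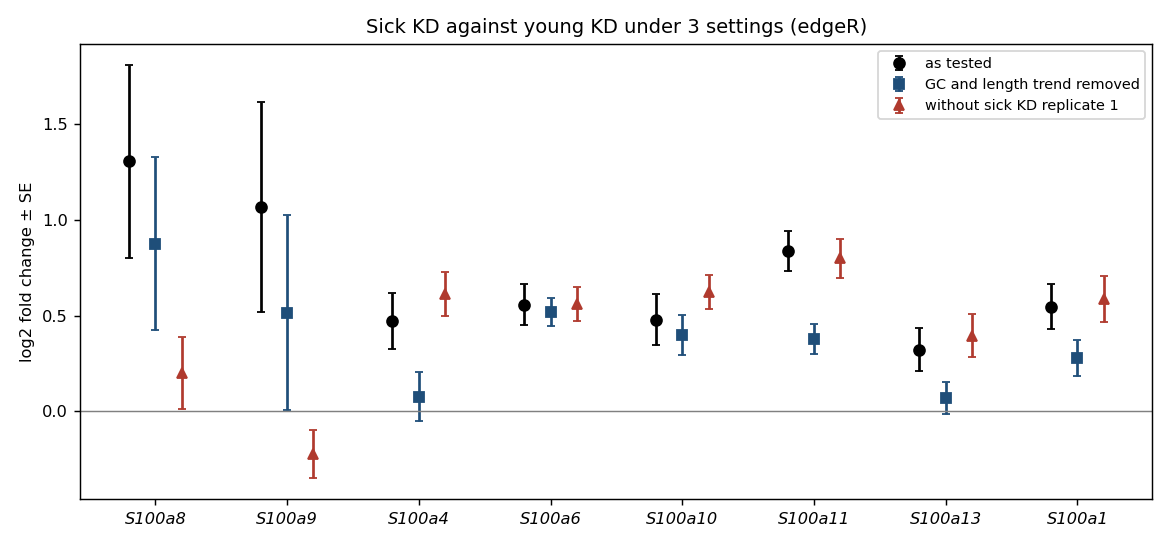
log2 fold change (± SE) of each member between sick KD and young KD, as tested (n = 2 each), with the GC and length trend removed, and without sick KD replicate 1, the 187-day mouse. S100a6 stays between 0.52 and 0.56, S100a11 drops to 0.38 without the trend, and S100a9 turns to -0.22 without that mouse.

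In the young mice, where the genotypes were compared before disease, none of the 8 members passed the test. S100a8 had 393 and 442 CPM in young KO against 475 and 647 CPM in young KD, and S100a9 had 197 and 234 CPM against 306 and 358 CPM. Both young KO mice were under both young KD mice in each gene, as in 11.5% of all genes. In S100a11 both young KO mice (43.6 and 44.1 CPM) were above both young KD mice (39.6 and 40.9 CPM), as in 15.9% of all genes. The log2 fold change of S100a9 was -0.63 (SE 0.13, adjusted p = 0.856, edgeR) and that of S100a8 -0.44 (SE 0.16, unadjusted p = 0.0333, edgeR). These were the 2 members with an unadjusted p under 0.05, which 394 of the 14839 tested genes reached (edgeR). Of all genes only 0.0404% were called. DESeq2's Wald test called S100a9 (adjusted p = 0.0025) among 0.247% of genes, and edgeR without the filter on low counts called S100a9 (adjusted p = 2.2e-05) and S100a8 (adjusted p = 0.0197) among 0.544%. The log2 fold changes of the other 6 members lay between 0.03 (S100a4) and 0.12 (S100a10), with SEs from 0.08 to 0.13.

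An interaction term fitted to all 8 mice tested whether KO and KD differed by another amount at the young ages than in the old and sick animals. This was so for S100a8 (-3.33 on the log2 scale, SE 0.71, adjusted p = 0.0347), S100a9 (-3.12, SE 0.76, adjusted p = 0.0463) and S100a11 (-1.03, SE 0.18, adjusted p = 0.0218, edgeR). Among all genes, 3.11% were called in this direction. The median of this term was -0.16 over genes with under 1500 bases of exon, as all members have, and 0.02 over longer genes. With each mouse left out in turn, S100a11 was called in 4 of 8 fits, S100a8 in 2 and S100a9 in 1. S100a6 (-0.43), S100a10 (-0.40), S100a1 (-0.37), S100a13 (-0.25) and S100a4 (-0.12) did not pass.

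The partners of the S100 proteins were examined as a list of 8 genes. Anxa1 and Anxa11, which encode the annexins bound by S100A11 and S100A6, were higher in sick KD than in young KD and lower in old KO than in sick KD, and the other 6 passed in no comparison. These 2 of 8 genes compare with 9.45% of all genes called higher in sick KD and 8.22% called lower in old KO. Anxa1 had 747 and 622 CPM in sick KD, 402 and 403 CPM in young KD and 444 and 387 CPM in old KO. Its log2 fold change was 0.78 between sick and young KD (SE 0.13, adjusted p = 0.0137, edgeR) and -0.73 between old KO and sick KD (SE 0.16, adjusted p = 0.0257, edgeR). Anxa11 had 32.0 and 30.1 CPM in sick KD, 16.6 and 16.6 CPM in young KD and 17.0 and 18.4 CPM in old KO. The values were 0.91 (SE 0.12, adjusted p = 0.0075, edgeR) and -0.82 (SE 0.13, adjusted p = 0.0104, edgeR). Both sick KD mice therefore stood above all other mice in S100a11 and in these annexins. Anxa2, the partner of S100A10, ranged from 631 to 851 CPM and did not pass (0.35, adjusted p = 0.070, sick against young KD, edgeR).

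Of all genes, 11.4% were called lower in sick KD than in young KD and 9.93% higher in old KO than in sick KD. Of the 7 receptor and receptor-side genes only Cd36, a scavenger receptor, was called. It had 13.9 and 23.6 CPM in sick KD and 58.4 and 32.8 CPM in young KD (log2 fold change -1.27, SE 0.33, adjusted p = 0.0422, edgeR), and 63.6 and 35.6 CPM in old KO (1.39 against sick KD, SE 0.33, adjusted p = 0.0318, edgeR). Tlr4, the receptor through which calprotectin signals, had 54.6 to 121 CPM, with the highest value in the 187-day sick KD mouse. Its log2 fold change was 0.62 between sick and young KD (SE 0.20, adjusted p = 0.0698, edgeR) and -0.62 between old KO and sick KD (SE 0.23, adjusted p = 0.108, edgeR). Ager, which encodes RAGE, reached only 1.23 to 2.24 CPM and passed in no comparison.

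Among 7 other alarmin genes, Hmgb1, Hmgn1 and Il1a were lower in sick KD than in young KD, opposite in sign to the S100 members called there, and none was called in the other comparisons. Of all genes, 11.4% were called lower and 9.45% higher in sick KD than in young KD. Hmgb1 had 228 and 233 CPM in sick KD against 342 and 314 CPM (log2 fold change -0.50, SE 0.11, adjusted p = 0.0257, edgeR). Hmgn1 had 61.5 and 70.8 CPM against 114 and 94.5 CPM (-0.65, SE 0.14, adjusted p = 0.0232, edgeR). Il1a, whose product S100A13 helps to export, reached at most 1.62 CPM in any mouse (-1.54, SE 0.42, adjusted p = 0.0457, edgeR). Of 8 myeloid transcription factor genes only Klf4, a monocyte factor, was called, with 134 and 168 CPM in sick KD against 94.0 and 108 CPM in young KD (0.59, SE 0.15, adjusted p = 0.0368, edgeR). The other 7, among them the neutrophil regulators Cebpa and Cebpe and the PU.1 gene Spi1, passed in no comparison. Of the 8 other S100 genes counted, only S100a16 was high enough to be tested, at 0.18 to 0.60 CPM, and it passed in no comparison.

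Neutrophil markers moved with S100a8 and S100a9 in part. The summed level of 10 of them was 1547 and 984 CPM in sick KD, 662 and 667 CPM in old KO, 640 and 685 CPM in young KD and 718 and 713 CPM in young KO. Mmp8, Lcn2 and Csf3r make up most of this sum. In sick against young KD 2 of the 10 markers were called higher and 1 lower, and in old KO against sick KD 2 of 9 tested were lower and 1 higher. The shares of all genes were 9.45% and 11.4% in the first comparison and 8.22% and 9.93% in the second. Lcn2, a granule protein gene, had 418 and 200.5 CPM in sick KD, 26.6 and 43.7 CPM in old KO, 71.9 and 74.8 CPM in young KD and 71.3 and 90.4 CPM in young KO. Its order of groups was close to that of S100a8, with a log2 fold change of -3.15 between old KO and sick KD (SE 0.39, adjusted p = 0.0055, edgeR). The genes did not keep a fixed proportion. S100a8 had 6.60 and 8.65 counts per Lcn2 count in young KD and 5.52 and 4.89 in young KO. It had 5.06 and 3.19 in sick KD and 2.74 and 3.04 in old KO. Mmp8, a neutrophil collagenase gene, was also lower in old KO than in sick KD (-0.89, SE 0.20, adjusted p = 0.0289, edgeR). Retnlg went the other way (1.77, SE 0.27, adjusted p = 0.0094, edgeR). The granule genes Ngp (8.55 to 30.03 CPM), Camp (1.48 to 9.42 CPM) and Ltf (6.22 to 24.0 CPM) were low in every mouse and passed in no comparison. In young KO against young KD, where S100a8 and S100a9 had negative values, the median log2 fold change of the 10 markers was -0.62, and none was called. An unadjusted p under 0.05 was reached by 6 of them and by 394 of the 14839 tested genes (edgeR). Values were negative in Ly6g (-1.62), Camp (-0.97), Ngp (-0.82), Mmp9 (-0.64) and Retnlg (-0.60) and positive in Mmp8 (0.21). Ly6g rested on 6 and 7 counts in young KO and 22 and 17 in young KD. The neutrophil genes named were chosen after their values were seen. The part of neutrophil content in the S100 values was not tested.

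**Figure D5:**
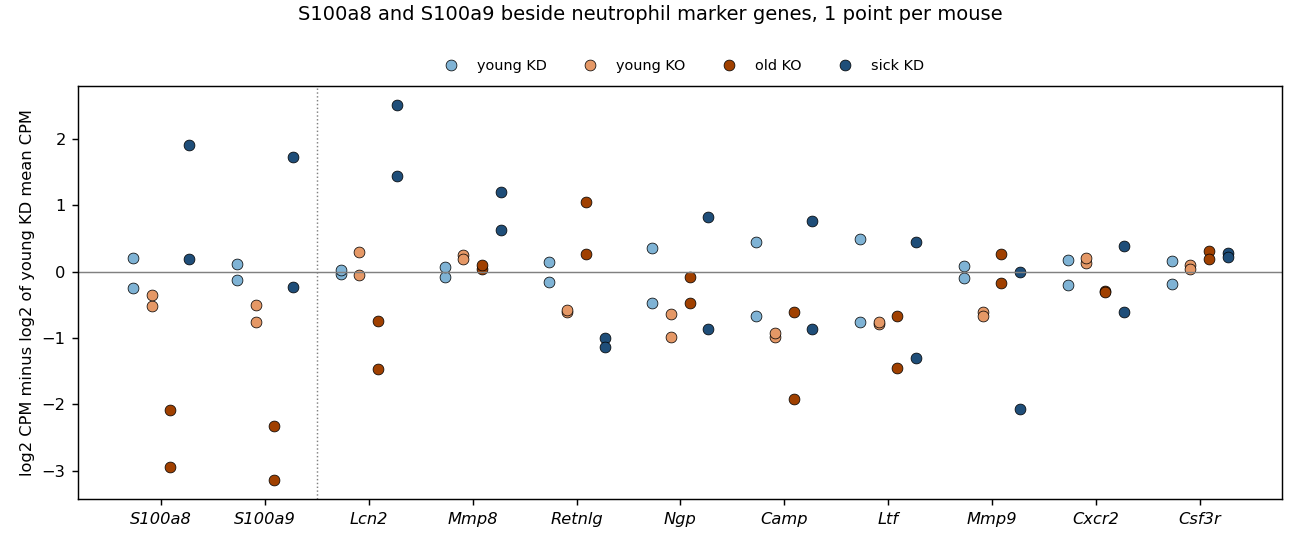
log2 CPM of S100a8, S100a9 and 9 neutrophil marker genes in each mouse, relative to the log2 of the young KD mean of that gene, 1 point per mouse (n = 2 in each of 4 groups). Lcn2, like S100a8, is lowest in old KO (26.6 and 43.7 CPM). Both sick KD mice are highest in Lcn2 (418 and 200.5 CPM), whereas in S100a8 the 78-day sick KD mouse lies within the young KD range. Sick KD and old KO mice overlap in Ngp, Camp and Ltf.

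Markers of other cells also moved with these comparisons, and their part in the S100 values was not tested. The shares of all genes called were 9.45% higher and 11.4% lower in sick against young KD. They were 8.22% lower and 9.93% higher in old KO against sick KD, and 0.606% lower in old against young KO. Of 6 B-cell genes all 6 were lower in sick KD than in young KD and in old KO than in young KO, with summed levels of 33.2 and 66.2 CPM in sick KD, 98.3 and 142 CPM in old KO and 408 to 557 CPM in young mice. All 8 erythroid genes were lower in sick KD than in young KD and higher in old KO than in sick KD, with sums of 775 and 1191 CPM in sick KD, 3612 and 5691 CPM in old KO and 1773 to 4989 CPM in young mice. Of 5 promyelocyte genes 4 were higher in sick KD than in young KD, and 2, Elane and Ms4a3, were lower in old KO than in sick KD (sums of 6214 and 6973 CPM in sick KD, 4337 and 4699 CPM in young KD and 4232 and 5533 CPM in old KO). Of 6 monocyte genes Ly6c2 was higher and Cx3cr1 lower in sick KD than in young KD. The 6 summed to 8986 and 8409 CPM in sick KD and to 5801 and 7484 CPM in young KD. In old KO against sick KD, Cx3cr1 was higher (log2 fold change 1.18, SE 0.16, adjusted p = 0.0063, edgeR) and Ly6c2 did not pass. Of 6 macrophage genes 5, and of 5 stromal genes all 5, were lower in sick KD than in young KD. In old KO against sick KD 5 of 6 macrophage genes were higher (median log2 fold change 2.25), as were all 4 eosinophil genes (1.76), 3 of 5 stromal genes (2.01) and 3 of 6 T-cell and NK-cell genes (1.20). The eosinophil genes summed to 1153 and 617 CPM in old KO and to 269 to 489 CPM in the other mice.

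The genes whose pattern over the 8 mice was most like that of a member were searched among 8944 protein-coding genes outside the family with a mean of at least 10 CPM, by Pearson's r of log2(CPM + 1). For S100a9 these were Sec63 (r = 0.988), Exosc8 (0.982) and Ddx6 (0.971), and for S100a8 Vta1 (0.976), Orc5 (0.975) and Sec63 (0.973). Their range was far narrower: Sec63 went from 47.2 to 88.6 CPM. For S100a11 they were Bbip1 (0.993), Farsb (0.993) and Srgn (0.991), the last encoding the granule proteoglycan serglycin, for S100a6 2410015M20Rik (0.994), Tyrobp (0.990) and Msantd3 (0.986), and for S100a1 the ribosomal genes Rps12 (0.991), Rpl7a (0.987) and Rps6 (0.982). These are the highest of many values over 8 mice in 4 groups and describe these libraries only.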

How the data were processed

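RNA from whole BM of 8 mice was sequenced by the authors as stranded poly(A) libraries (TruSeq, paired-end, HiSeq). Per the paper and the submitters' processing notes, reads were aligned to mm10 (GRCm38) with TopHat2 2.0.10 and counted on Ensembl genes with HTSeq, and the authors deposited the raw counts per gene of each mouse. The Ensembl release and the strand setting of the counting are not given in the sources used here. The 5 HTSeq tallies of unassigned reads were left out of library sizes.

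Mice were grouped by the sample labels, which number mice individually and give no pairing. The deposited files of all 8 mice name the same run, and no other batch is given. Symbols and coordinates came from GENCODE M21, in which 40340 of 41214 identifiers have a symbol. Counts were tested with edgeR 4.0.16 (R 4.3.3): TMM scaling, filterByExpr by group, trended dispersion, quasi-likelihood test, and Benjamini-Hochberg adjustment over all genes with a threshold of 0.05. Each comparison was fitted on its own 4 mice and the interaction on all 8. The SE was taken as the size of the log2 fold change over the root of the F statistic. CPM values were scaled by TMM over all 8 libraries. The script was tested on simulated data.

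Mice of a group differed beyond counting error (chi-square per degree of freedom of 21.8 to 35.9), so the spread between mice rather than depth limits the precision of members, whose lowest count was 647. Alternatives were DESeq2 1.42.0 (size factors, Wald test), library totals alone, scaling without the 50 genes with most counts, other filters, all 8 mice in 1 fit, removal of the trend in GC content and length, and leaving out each mouse.

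Named were all members, the genes of the fixed lists of receptors, partners, other alarmins and myeloid regulators that passed the test (up to 4 with the smallest p), Tlr4, Ager and Anxa2, and the 3 most similar genes. The members and lists were chosen with earlier results of these data known.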

Additional observations from a re-analysis of the deposited data

Results flagged for a closer look

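For 10 of the genes in the S100 lists and among the neutrophil, promyelocyte and monocyte markers, KO and KD differed by another amount in the old and sick animals than in the young ones, by the interaction test (edgeR, adjusted p under 0.05). Of all genes, 7.43% were called in either direction. Of the marker lists left out here, the macrophage (5 of 6), stromal (3 of 5), eosinophil (1 of 4) and B-cell (1 of 6) lists also had calls, and the others none. The lists searched held 8 members, 8 other S100 genes, 7 receptor, 8 partner, 7 alarmin and 8 regulator genes. Their marker lists held 10 neutrophil, 5 promyelocyte and 6 monocyte genes. Groups of 2 mice are too small to test for a mouse far from the others. The change in the log2 difference was -3.33 for S100a8 and -3.12 for S100a9, whose log2 fold change went from -0.44 and -0.63 in young mice to -3.76 and -3.75 between old KO and sick KD. For S100a11 it was -1.03, from 0.11 to -0.91. Among the S100 partners it was -0.71 for Anxa1 (from -0.04 to -0.73) and -0.86 for Anxa11 (from 0.02 to -0.82). Among the neutrophil markers it was -3.29 for Lcn2 (from 0.13 to -3.15), -1.10 for Mmp8 (from 0.21 to -0.89) and 2.36 for Retnlg (from -0.60 to 1.77). It was -1.08 for the promyelocyte gene Ms4a3 and 1.25 for the monocyte gene Cx3cr1. Without sick KD replicate 1, the 187-day mouse, the values of S100a8, S100a9 and S100a11 were -2.22, -1.83 and -0.99, and none of the 3 was then called.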

How the results depend on the processing

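Each of 504 log2 fold changes of members under an alternative was compared with the value reported: 456 kept their side of the threshold, 27 lost a call, 21 gained one and 0 called values changed sign, while 20 uncalled values did. The number of members called between old KO and sick KD was 3 or 4 under every alternative run, mice left out included, although a fit with a mouse left out has 1 mouse in that group and takes the spread from the others. Between young KO and young KD it rose from 0 to 1 with DESeq2's Wald test (0.247% of all genes called) and to 2 without a filter (0.544%). Between sick and young KD 20.9% of all genes were called in the reported fit, and the shares under the alternatives are not given here. The number of members called there rose from 3 to 5 with the Wald test, to 7 without a filter and to 5 with all 8 mice in 1 fit. It also varied with the mouse left out. A rise in this number is therefore not read as particular to the members. Between old and young KO the number of members called went from 2 to 0 with all 8 mice in 1 fit and varied with the mouse left out. For the interaction it ranged from 0 to 3. Library totals alone moved the median of all genes by -0.13 between sick and young KD, 0.11 between old KO and sick KD and 0.13 in the interaction, and changed no call of a member. Of 96 group levels under another scaling, 7 moved by over 1 SD. By Spearman's rho 0 or 1 of the 3 most similar genes were shared. No paired analysis was possible because the labels number the mice individually and the groups share no number.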
